A study of Mus musculus with 12 samples.

Results

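Chemokines are small secreted or membrane-tethered proteins that direct the migration of leukocytes, and chemokine receptors are the G protein-coupled receptors through which cells read them. The 54 genes described here were every row of the deposited liver count tables whose gene name begins with Ccl, Cxcl, Cx3cl, Xcl, Ccr, Cxcr, Cx3cr or Xcr followed by a digit, out of 23391 genes listed in either table. They were 34 ligand genes, 2 ligand pseudogenes and 18 receptor genes. In the liver, hepatocytes, bile duct cells, stellate cells, endothelium and Kupffer cells all make ligands, whereas most receptors are carried by the leukocytes that enter the tissue. Ligands are commonly divided into inflammatory ones, which are induced by NF-kB or interferon signals, and homeostatic ones, which are made continuously. HuR, encoded by Elavl1, is an RNA-binding protein that recognizes AU-rich elements, the ATTTA-type stretches common in the 3′ untranslated regions of cytokine and chemokine mRNAs.

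Bulk RNA-seq was available for livers of male C57BL/6N mice that all carried a floxed Elavl1 allele on both chromosomes (HuR flox/flox) and were 4 to 6 months old at injection. WT mice had received AAV8-Tbg-null, and hepatocyte HuR-deficient mice (HuRHep-/-) had received AAV8-Tbg-Cre, a virus whose Cre is driven by the hepatocyte-specific Tbg promoter and so is directed to hepatocytes. Livers were collected on normal chow or after 16 weeks on the HFCF diet, which supplied 40 kcal% as fat and 20 kcal% as fructose and contained 2% cholesterol, with 3 libraries in each of the 4 groups. The methods of the published work describe an albumin-Cre cross studied at a younger age for the chow livers, which differs from the labels, and the groups used here are those of the labels. Chow and HFCF libraries were deposited as separate tables, so diet and table cannot be told apart.

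Between 30071731 and 35949203 reads were counted on genes in each library. The counts on Elavl1 went against the labels. They were 938, 876 and 948 in chow WT and 1475, 1265 and 1261 in the libraries labelled chow HuRHep-/-, and they were 904, 791 and 849 in HFCF WT and 1299, 1242 and 1271 in the libraries labelled HFCF HuRHep-/-. The libraries labelled HuRHep-/- therefore held more Elavl1 reads in both diets (log2 fold change 0.41 in chow and 0.38 in HFCF), and a gene total also counts exons outside the deleted part, so it does not check the deletion. Hepatocyte markers summed to 98910 to 120800 CPM (counts scaled to a common library total) in chow WT, 78970 to 88850 in chow HuRHep-/-, 72750 to 79630 in HFCF WT and 63230 to 69310 in HFCF HuRHep-/-, without overlap between genotypes in either diet. That holds for the sums, in which abundant transcripts weigh most. The mean log2 CPM of the same 8 markers overlapped between genotypes. It was 12.18 to 12.4 in chow WT and 11.98 to 12.29 in chow HuRHep-/-, and 11.67 to 12.06 and 11.54 to 11.77 in HFCF. By genotype, 0 of the 8 were called in chow and 1, lower, in HFCF, beside 2.24% and 3.62% of all genes tested. Whether the shift in the sums has a part in the differences below was not tested. Among the HFCF WT livers, replicate 2 stood closer to chow than the other 2 in several of the genes below, and diet calls in WT that depend on it are given with and without it.

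Of the 54 genes, 50 were listed in both tables. Ccl20, Cxcl3 and the pseudogene Ccl19-ps3 were listed in the HFCF table alone, with totals of 8, 6 and 8 reads, and Ccr1l1 in the chow table alone with 3 reads. Genes were tested where at least 3 libraries reached a CPM worth 10 counts at the median depth, which admitted 25 of the genes in chow, 32 in HFCF and 33 over the 12 libraries (23 ligands and 10 receptors). Because 3 libraries suffice, a gene could enter through the group in which it was high. The 21 genes tested nowhere never exceeded 19 counts in a library. Among them were the neutrophil receptors Cxcr1 and Cxcr2, which did not exceed 6 counts in any library, and the Ccl25 receptor Ccr9, which did not exceed 18.

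The genes lie in a few chromosomal groups. Chromosome 11 holds 14 of them, 12 of which are ligands, chromosome 5 holds 9 ligands, and chromosome 9 holds 11 receptors. Sequences are shown for the genes in which the genotype or diet differences below were concentrated, because their flanks are where signal-dependent transcription factors and HuR would be looked for. Promoters were taken from RefSeq (GRCm38.p6) as the 250 bases before an annotated start, which were present for 38 of the 54 genes in 42 entries. Capitals mark matches on either strand to the NF-kB consensus, the core of the interferon-stimulated response element (ISRE; GAAA, any 2 bases, then GAAA again), the TATA box TATAAA and the AP-1 site TGANTCA. The first is the interferon-inducible ligand Cxcl10 (chr5:92348890-92349139, minus strand), with the ISRE core beginning 213 bases before the start, NF-kB matches at 159 bases and, overlapping each other, at 104 and 103 bases, and an AP-1 match at 74 bases.
Cxcl10: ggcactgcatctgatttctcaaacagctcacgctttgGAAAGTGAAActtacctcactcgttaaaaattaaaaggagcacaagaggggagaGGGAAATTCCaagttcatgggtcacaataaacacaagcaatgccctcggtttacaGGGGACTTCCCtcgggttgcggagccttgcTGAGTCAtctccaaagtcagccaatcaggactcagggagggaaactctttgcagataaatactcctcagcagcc
Its neighbour Cxcl9 (chr5:92328080-92328329, minus strand), also interferon-inducible, held a TATA match 195 bases before the start and none of the other 3 motifs in this window.
Cxcl9: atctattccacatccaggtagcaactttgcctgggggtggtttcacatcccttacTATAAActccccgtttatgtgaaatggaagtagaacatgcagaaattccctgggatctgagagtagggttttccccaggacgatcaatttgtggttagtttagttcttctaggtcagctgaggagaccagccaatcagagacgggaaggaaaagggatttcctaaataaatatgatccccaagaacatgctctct
The gut-homing chemokine Ccl25 has more than 1 annotated start. No motif match was found in the window before its first RefSeq start. The window before its second (chr8:4349338-4349587, plus strand), shown here, held a TATA match at 16 bases.
Ccl25: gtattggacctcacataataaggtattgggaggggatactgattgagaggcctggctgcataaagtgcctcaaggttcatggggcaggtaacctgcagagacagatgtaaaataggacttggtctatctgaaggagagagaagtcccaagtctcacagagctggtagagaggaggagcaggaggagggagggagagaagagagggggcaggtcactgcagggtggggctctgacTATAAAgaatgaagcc
The B cell attractant Cxcl13 (chr5:95956689-95956938, plus strand) held a TATA match at 46 bases.
Cxcl13: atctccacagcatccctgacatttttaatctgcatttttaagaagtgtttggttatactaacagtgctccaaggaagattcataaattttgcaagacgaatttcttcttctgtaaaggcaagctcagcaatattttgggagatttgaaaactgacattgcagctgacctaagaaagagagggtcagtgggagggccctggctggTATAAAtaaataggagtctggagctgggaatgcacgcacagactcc
Of the 42 windows, 10 held an NF-kB match, 3 an ISRE core, 11 a TATA match and 5 an AP-1 match, beside 7.25%, 2.98%, 12.4% and 6.75% of all 32841 RefSeq promoters of this length.

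The 3′ ends were read from GENCODE M21 on GRCm38. Among the 33 tested genes, 23 carried the AU-rich pentamer ATTTA in the longest annotated 3′ untranslated region (69.7%), beside 69.8% of 13397 tested genes, and 3 carried the nonamer TTATTTATT (9.09%, beside 7.76%). The neutrophil attractants Cxcl2 and Cxcl1, with 11 and 7 pentamers, held the densest stretches, of which 30 bases each are shown with the pentamers in capitals (chr5:90905327-90905356 and chr5:90892602-90892631, both on the plus strand), together with Ccl3, a ligand of Ccr1 (chr11:83648085-83648114, minus strand).
Cxcl2: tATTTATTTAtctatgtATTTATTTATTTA
Cxcl1: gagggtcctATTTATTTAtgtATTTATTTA
Ccl3: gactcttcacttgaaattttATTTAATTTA
No pentamer was found in the longest annotated 3′ untranslated region of Ccl25. The paper states that HuR also binds U-rich sequences and sites in introns, and those were not searched.

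By level, the group was dominated by a few ligands. Averaged over the 12 libraries, Cxcl12, the stromal ligand of Cxcr4, was highest at 256.8 CPM, followed by the myeloid ligand Ccl9 (47.75), Cxcl16 (10.22), Ccl6 (9.574), Cxcl9 (8.954), Ccl27a (7.05), Cxcl1 (6.864), Ccl25 (3.951) and, among others of that level, Cxcl10 (2.895). In chow WT alone, Cxcl16 (7.02) and Ccl6 (5.08) stood below Ccl27a (8.5), Cxcl1 (8.13) and Cxcl9 (7.59), so their places in the mean rest on the other groups. Per kilobase of exon, which allows levels of different genes to be compared, the order over the 12 libraries was Cxcl12 (31.4 CPM per kilobase), Ccl9 (15.68), Ccl6 (5.333), Cxcl1 (3.661) and Cxcl16 (3.384). Here too the places of Ccl6 and Cxcl16 rest on groups other than chow WT. Ccl27a shares 57% of its 31-base words with other annotated genes, Ccl21a 80.6%, Ccl19 58.8% and Cxcl2 7.59%, so reads on these could have been split among copies and their values are uncertain.

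The first comparison asked which of these genes differed between genotypes on chow. No chemokine or receptor gene was called by limma in chow (adjusted p at most 0.05, fold change at least 1.5 and at least 10 counts in each group), against 2.24% of the 13526 genes tested. Of the 25 tested, 8 had an unadjusted p under 0.05, against 23.5% of all genes. With voom weights 0 were called as well. The smallest adjusted p was 0.0635, for Xcr1, the receptor of cross-presenting dendritic cells. Its levels were 0.691, 0.736 and 0.784 CPM in chow WT and 0.145, 0.31 and 0.308 CPM in chow HuRHep-/-. The groups did not overlap, and the log2 fold change was -1.55 (SE 0.38). Fitted on all 12 libraries, Xcr1 was called lower. Groups that did not overlap were found for 1 gene that was higher in HuRHep-/-, Ccl6, and for 5 that were lower, Xcr1, Ccl25, Cxcl9, Cxcl10 and Ccl9, beside 29.3% of all genes tested. Ccl6 was 5.08 ± 0.436 CPM in WT and 7.24 ± 0.811 CPM in HuRHep-/- (SD, n = 3; adjusted p = 0.0706 by limma). The most abundant members shifted little, with Cxcl12 at 254 ± 25.8 and 305 ± 37.3 CPM and Ccl9 at 59.8 ± 1.47 and 52.2 ± 4.16 CPM (SD, n = 3).

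After HFCF feeding, 3 of the 32 genes tested were called between genotypes (9.38%), 2 higher and 1 lower in HuRHep-/-, against 3.62% of all 14295 genes tested (2.15% higher and 1.47% lower). Ccl25 was lower, and Cxcl10 and Cx3cl1 were higher. Whole-liver RNA cannot tell fewer cells of a type from less RNA per cell, here or in any result that follows. The HFCF libraries deviated from their group means together with the library of the same replicate number, and with that number as a block Cxcl16 and Cxcr4 were called higher as well, which made 5. Some libraries of different diets deviated together to a like degree, so the numbers are not shown to be pairs. Without the block, 24 of the 32 log2 fold changes were positive, with a median of 0.59 beside -0.00 over all genes tested. That median was lower when HFCF WT replicate 2, which stood closer to chow, was left out. Beside them, log2 fold changes were positive for 12 of 12 tested markers of monocytes and recruited macrophages (median 1.10), of which 7 had an unadjusted p under 0.05 and 1, Cd9, was called. Of 10 Kupffer cell markers 9 were positive, 6 had an unadjusted p under 0.05 and 0 were called by limma. Over all genes 49.7% were positive, 29.5% had an unadjusted p under 0.05 and 2.15% were called higher. The part of these markers in the differences was not tested. Groups did not overlap for 8 of the 32 chemokine and receptor genes that were higher and 2 that were lower, beside 36.2% of all genes.

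**Figure D1:**
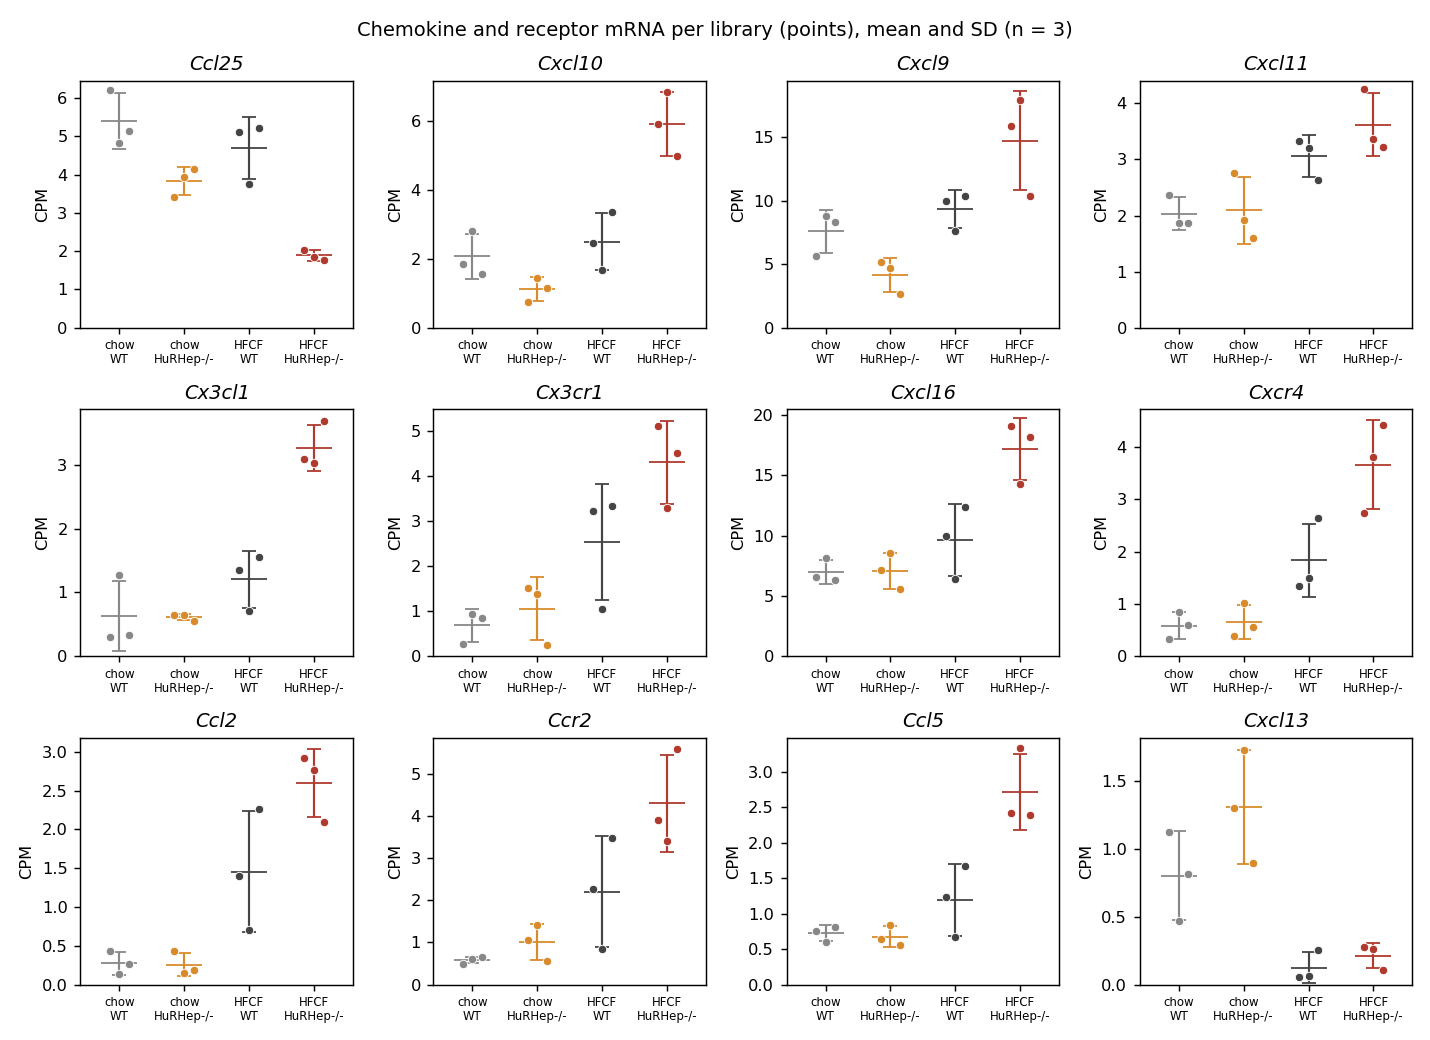
Level in CPM (y axis, from 0) of 12 chemokine or receptor genes in each library (points), with the mean and SD of the 3 libraries of each group (bars), for chow WT, chow HuRHep-/-, HFCF WT and HFCF HuRHep-/-. Ccl25 is lowest in HFCF HuRHep-/- (1.78 to 2.04 CPM), where Cxcl10 (4.98 to 6.84) and Cx3cl1 (3.03 to 3.69) lie above every other library.

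Ccl25, which attracts Ccr9-bearing lymphocytes and is best known from thymus and small intestine, gave the clearest genotype difference. Its counts were 189, 144 and 157 in chow WT, 118, 127 and 135 in chow HuRHep-/-, 194, 123 and 164 in HFCF WT and 82, 71 and 66 in HFCF HuRHep-/-. Every HuRHep-/- library lay below every WT library of its diet, and the HFCF HuRHep-/- libraries lay below all others. In HFCF the log2 fold change was -1.31 (SE 0.17, adjusted p = 0.0171 by limma), that is 2.48-fold lower. In chow it was -0.48 (SE 0.14, adjusted p = 0.105), which was not called. Averaged over both diets Ccl25 was the only one of the 33 genes called by genotype (-0.89, SE 0.11, adjusted p = 0.000467), against 5.46% of 14535 genes, and it was called in each of the 12 fits that left out a library. In the HFCF libraries alone the call was lost when HFCF WT replicate 1 or any HFCF HuRHep-/- library was left out, with log2 fold changes between -1.47 and -1.22 over the 6 fits, and in the fits that lost it 28 to 98 genes were called in all. The counts of its receptor Ccr9 summed to 30 over the chow libraries and 53 over the HFCF libraries, below the level tested.

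Elavl1, the floxed gene, lies beside Ccl25. On GRCm38, Ccl25 spans chr8:4325210-4360020 on the plus strand, and the first exon of Elavl1 spans chr8:4324886-4325413 on the minus strand, so the 5′ ends overlap by 204 bases and the first annotated Ccl25 start falls in that exon. The 30 bases around that start (chr8:4325195-4325224, plus strand) are shown with capitals from the start onwards.
Ccl25 first start: gcgcggcgtaggcggGACTTCCTGTCGGCG
A stranded kit was used, and the study's methods state reverse-strand alignment. Whether reads in the overlap were assigned to the right one of the 2 genes was not tested. Of 10 other tested genes starting within 300 kb, none was called by genotype by limma in chow or in HFCF. Of the 10, 1 and 3 had an unadjusted p under 0.05, beside 23.5% and 29.5% of all genes. The nearest to a call were Evi5l in chow (0.56, SE 0.13, adjusted p = 0.0525) and Ctxn1 in HFCF (1.24, SE 0.34, adjusted p = 0.0716). Whether the position of Ccl25 has a part in its difference was not tested.

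**Figure D2:**
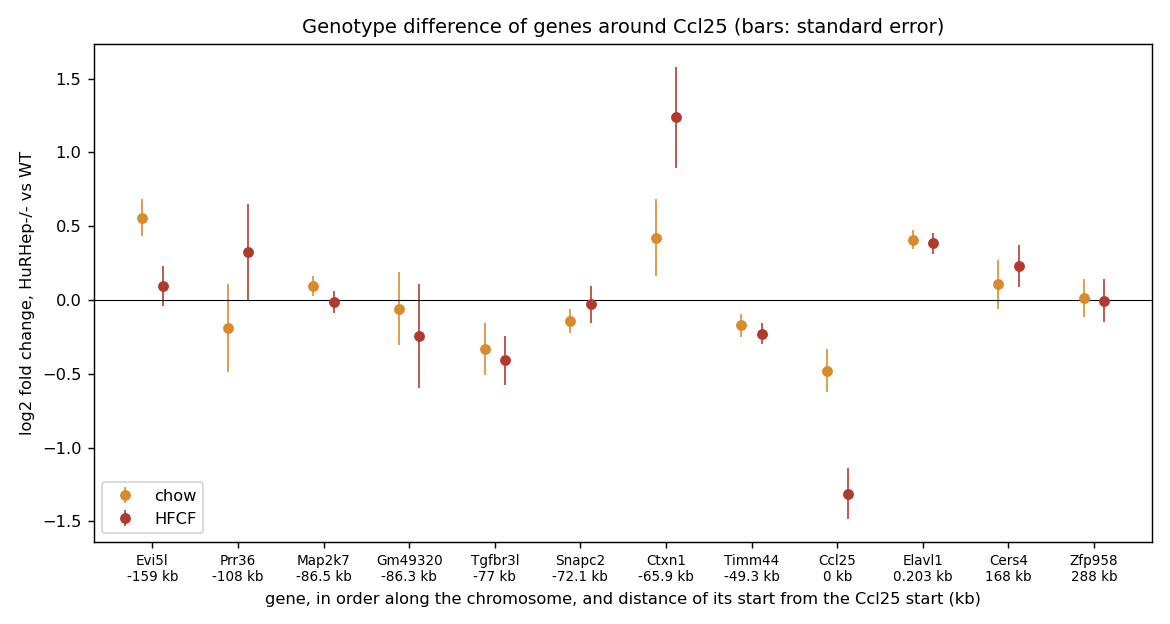
Log2 fold change of HuRHep-/- against WT (y axis; bars are the SE of the limma fit) for Ccl25, Elavl1 and the 10 other tested genes whose starts lie within 300 kb, in order along the chromosome (x axis), in chow and in HFCF. Ccl25 is at -0.48 and -1.31, and Elavl1 is at 0.41 and 0.38.

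Cxcl10 and Cxcl9 are induced by interferon and attract Cxcr3-bearing T and NK cells. Cxcl10 was 1.84, 2.81 and 1.54 CPM in chow WT, 0.754, 1.45 and 1.14 in chow HuRHep-/-, 2.45, 1.68 and 3.34 in HFCF WT and 5.91, 6.84 and 4.98 in HFCF HuRHep-/-. The HuRHep-/- livers were thus below WT on chow and above WT on HFCF, without overlap in either diet. In HFCF Cxcl10 was increased 2.41-fold (log2 1.27, SE 0.26, adjusted p = 0.0377), whereas in chow its log2 fold change was -0.88 (SE 0.32, adjusted p = 0.156). Cxcl9 was 5.66, 8.79 and 8.3 CPM in chow WT, 5.19, 4.67 and 2.65 in chow HuRHep-/-, 9.95, 7.63 and 10.4 in HFCF WT and 15.9, 17.9 and 10.4 in HFCF HuRHep-/-. It was ordered like Cxcl10, but the lowest HFCF HuRHep-/- library lay next to the highest HFCF WT library, and neither genotype difference was called (log2 -0.89 in chow and 0.62 in HFCF). Cxcl11, the other ligand of this receptor, annotated in this strain as a polymorphic pseudogene, stayed at 2.04 ± 0.29 and 2.09 ± 0.596 CPM in chow WT and HuRHep-/- and at 3.06 ± 0.368 and 3.62 ± 0.56 CPM in HFCF WT and HuRHep-/- (SD, n = 3). The receptor Cxcr3 had 7 to 16 counts in every chow library, 8 to 15 in HFCF WT and 20 to 25 in HFCF HuRHep-/-. T cell markers are given beside these values. Their sum was 5.62 to 5.95 CPM in chow WT, 4.29 to 6.35 in chow HuRHep-/-, 6.86 to 7.81 in HFCF WT and 8.45 to 10.9 in HFCF HuRHep-/-, none of the 11 was at 0 in any library, and none of the 10 tested was called by genotype in HFCF, where 5 had an unadjusted p under 0.05. Over all genes 29.5% had an unadjusted p under 0.05 in HFCF. The part of the T cell markers in the Cxcl9 and Cxcl10 values was not tested.

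Cx3cl1 (fractalkine) and Cxcl16 are the chemokines made as membrane-bound proteins, which hold cells bearing Cx3cr1 and Cxcr6. Cx3cl1 was 0.296, 1.27 and 0.327 CPM in chow WT, 0.638, 0.65 and 0.554 in chow HuRHep-/-, 1.35, 0.702 and 1.56 in HFCF WT and 3.09, 3.03 and 3.69 in HFCF HuRHep-/-. The HFCF HuRHep-/- libraries stood above all others. Chow WT overlapped with chow HuRHep-/- and with HFCF WT, while every HFCF WT library lay above every chow HuRHep-/- library. Its increase between HFCF genotypes was 2.81-fold (log2 1.49, SE 0.30, adjusted p = 0.0377), and it was not called in the fit on all 12 libraries. Cxcl16 was 9.98, 6.44 and 12.4 CPM in HFCF WT and 19.1, 14.3 and 18.2 CPM in HFCF HuRHep-/-, with no overlap, and was called with the block, in the fit on 12 libraries or without HFCF WT replicate 3 (log2 0.87, SE 0.24, adjusted p = 0.0695 in the 6 HFCF libraries without the block, and log2 0.60 without HFCF WT replicate 2). On chow it was 7.02 ± 0.999 and 7.07 ± 1.5 CPM (SD, n = 3). The receptor Cx3cr1 was 3.22, 1.04 and 3.34 CPM in HFCF WT and 5.11, 3.29 and 4.5 CPM in HFCF HuRHep-/-, and Cxcr6 was 0.282 ± 0.147 and 0.568 ± 0.135 CPM (SD, n = 3), and both pairs of groups overlapped.

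Markers of bile duct cells, a source of fractalkine, followed the same grouping. The 6 markers summed to 8.89 to 13.4 CPM in chow WT, 7.29 to 13.3 in chow HuRHep-/-, 8.61 to 13.6 in HFCF WT and 22 to 35 in HFCF HuRHep-/-. Of the 6, 4 were called higher in HFCF HuRHep-/- than in HFCF WT, beside 2.15% of all genes, and none was at 0 in any library. Their part in the Cx3cl1 and Cxcl16 values was not tested. Leaving out HFCF WT replicate 2, which was lowest in Cx3cl1 and Cxcl16 among the HFCF WT libraries, kept Ccl25, Cxcl10 and Cx3cl1 called, with log2 fold changes of -1.47, 1.01 and 1.14. The call for each of the 3 was lost without HFCF WT replicate 1 or without any of the HFCF HuRHep-/- libraries, and 8 genes were called without HFCF WT replicate 3.

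**Figure D3:**
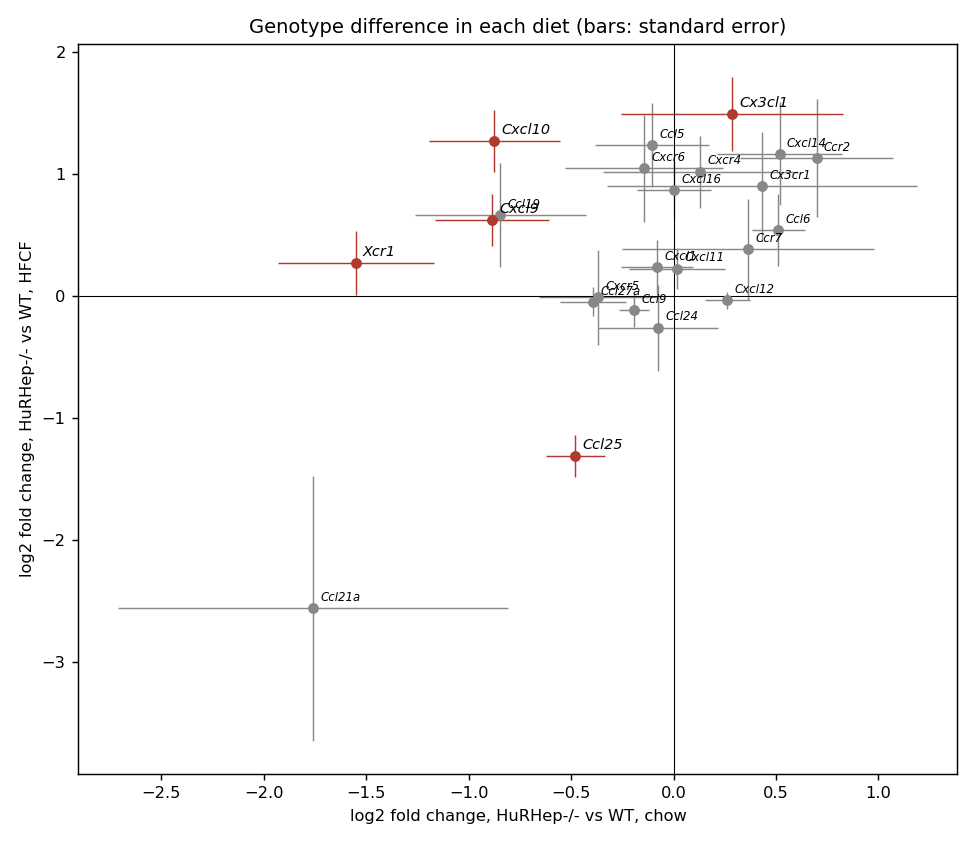
Log2 fold change of HuRHep-/- against WT in chow (x axis) and in HFCF (y axis) for genes tested in both diets, with the SE of each fit as bars. Ccl25 is below 0 on both axes, and Cxcl10 (-0.88 and 1.27), Cxcl9 (-0.89 and 0.62) and Xcr1 (-1.55 and 0.27) lie to the left of 0 and above 0 on the y axis.

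Whether the genotype difference itself changed with diet was tested as an interaction over the 12 libraries. No gene of the 14535 tested was called by limma (0%), while 2086 had an unadjusted p under 0.05, 8 of them among the 33 chemokine and receptor genes. The smallest adjusted p among the 33 was 0.108, for Cxcl10, whose genotype difference was 2.17 higher in HFCF on the log2 scale (SE 0.43). It was followed by Ccl4 (3.33, SE 0.78), Xcr1 (1.84, SE 0.44), Cxcl9 (1.53, SE 0.39) and Ccl25 (-0.81, SE 0.22), with adjusted p between 0.142 and 0.184. Of the 33 interaction estimates 28 were positive, beside 50.7% of all genes. A difference between the diets in the genotype effect was thus not shown for any of these genes.

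The HFCF diet was compared with chow within each genotype. In WT livers 7 of the 33 genes were called (21.2%), 6 higher and 1 lower, against 9.38% of 14535 genes (6.14% higher and 3.24% lower), and 11 passed the adjusted p alone, against 24.1%. In HuRHep-/- livers 19 were called (57.6%), 17 higher and 2 lower, against 19.1% (14.2% higher and 4.9% lower), and 26 passed the adjusted p alone, against 38.9%. The median log2 fold change of the 33 was 0.58 in WT and 1.59 in HuRHep-/-, beside 0.01 and 0.00 over all genes tested. Of the 33, 8 passed the filter in HFCF and not in chow, and 1 in chow and not in HFCF. Their diet difference was thus in part a condition of entry, and they are in these medians and counts. In both genotypes 5 genes were called higher and 1 lower. The comparisons shared no library but took their spread from the same fit over 12 libraries, so their calls are not independent. The interaction above is the test of the difference between them, and it called none. With the replicate block 18 were called in HuRHep-/- and 7 in WT. In WT the count rested on single libraries. It was 15 without HFCF WT replicate 2, 3 without chow WT replicate 1 and 4 without HFCF WT replicate 3, and Ccl2 and Ccl6 were called in each of the 12 fits.

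**Figure D4:**
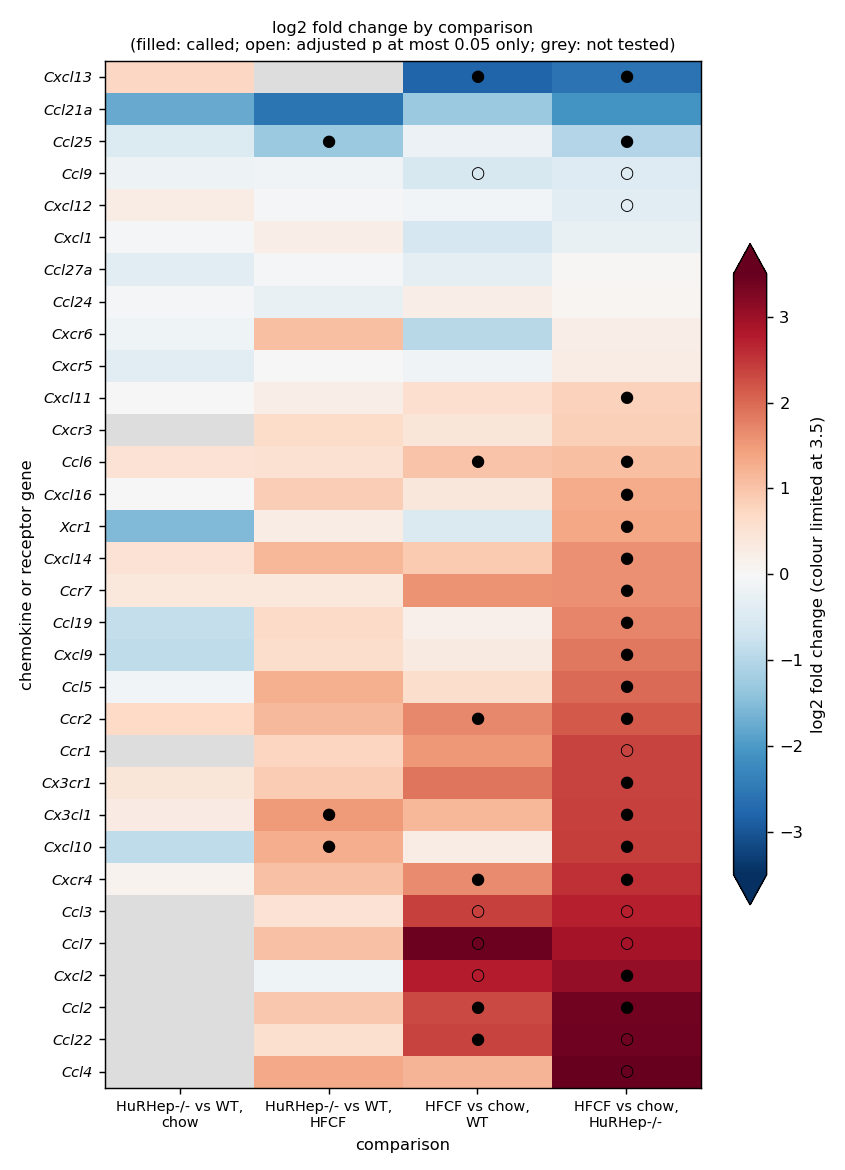
Log2 fold change (colour, limited at 3.5; red higher, blue lower) of 32 of the 33 tested chemokine and receptor genes (rows) in the genotype comparisons within chow and HFCF and the diet comparisons within WT and HuRHep-/- (columns). Filled circles mark genes called in each column, of which chow genotype has none and diet in HuRHep-/- the most, open circles those that passed the adjusted p alone, and grey cells genes not tested.

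Of the 5 genes of the monocyte axis (Ccl2, Ccl7, Ccl8, Ccl12 and Ccr2), 3 were tested and 2, Ccl2 and Ccr2, were called higher with diet in each genotype. Ccl2 recruits Ccr2-bearing monocytes from blood. It was 0.428, 0.134 and 0.261 CPM in chow WT, 0.435, 0.155 and 0.185 in chow HuRHep-/-, 1.4, 0.702 and 2.26 in HFCF WT and 2.92, 2.77 and 2.1 in HFCF HuRHep-/-. All HFCF libraries lay above all chow libraries, and the genotypes overlapped within each diet. The diet difference was 2.32 on the log2 scale in WT (SE 0.51, adjusted p = 0.00793) and 3.38 in HuRHep-/- (SE 0.51, adjusted p = 0.000696). The related ligand Ccl7 had 1, 0 and 0 counts in chow WT and 12, 3 and 15 in HFCF WT, a ratio of 30.3 with a counting interval from 5.03 to 1230, and was left uncalled because its chow counts were under the minimum. The receptor Ccr2 was 0.494, 0.602 and 0.654 CPM in chow WT, 1.07, 1.42 and 0.554 in chow HuRHep-/-, 2.27, 0.855 and 3.49 in HFCF WT and 3.91, 3.4 and 5.6 in HFCF HuRHep-/-. It was called higher with HFCF in WT (log2 1.68, SE 0.46) and in HuRHep-/- (2.13, SE 0.46), although HFCF WT replicate 2 stood below the highest chow HuRHep-/- libraries. The WT difference was 2.25 without that library, and the WT call was lost with voom weights and without chow WT replicate 1, HFCF WT replicate 1 or HFCF WT replicate 3.

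Markers of monocytes and recruited macrophages moved the same way. Of 13 listed, 12 were in the tables and tested, of which 6 were called higher with diet in WT and 9 in HuRHep-/-, and Chil3 was at 0 in some libraries. The sum was dominated by Fn1, which hepatocytes also express. The 12 together ran from 853 to 972 CPM in chow WT, 1136 to 1250 in chow HuRHep-/-, 873 to 1029 in HFCF WT and 1149 to 1404 in HFCF HuRHep-/-, and the 11 without Fn1 summed to 92.4 to 143, 121 to 166, 132 to 325 and 337 to 543 CPM. Trem2, a marker of recruited lipid-associated macrophages, was 4.49, 1.77 and 7.81 CPM in the HFCF WT libraries, in the same order as Ccl2 and Ccr2, and 7.08, 4.74 and 8.81 CPM in HFCF HuRHep-/-, where Ccr2 kept the order of Trem2 and Ccl2 was lowest in the library with the most Trem2. The part of these cells in the diet differences was not tested.

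Among the ligands of Ccr1 and related receptors, which act on macrophages and T cells, Ccl6 was called higher with diet in both genotypes (log2 1.00, SE 0.25, and 1.05, SE 0.25). It ran from 4.61 to 5.46 CPM in chow WT, 6.34 to 7.91 in chow HuRHep-/-, 7.2 to 16.5 in HFCF WT and 12.2 to 17.4 in HFCF HuRHep-/-. Kupffer cell markers summed to 203 to 257, 270 to 396, 291 to 480 and 446 to 675 CPM in the same groups, none of the 10 was at 0, and 3 were called higher with diet in WT and 5 in HuRHep-/-, where 1 was called lower. Their part in the Ccl6 values was not tested. Ccl5 was 0.757, 0.602 and 0.817 CPM in chow WT, 0.638, 0.836 and 0.554 in chow HuRHep-/-, 1.24, 0.672 and 1.68 in HFCF WT and 2.42, 3.34 and 2.4 in HFCF HuRHep-/-. Its diet difference was called in HuRHep-/- (1.99, SE 0.31, adjusted p = 0.000879) and not in WT (0.63, SE 0.31), where it was called without HFCF WT replicate 2 (0.99). In HFCF its genotype difference was 1.23 (SE 0.34, adjusted p = 0.0719) and 0.87 without that library, and the groups did not overlap.

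Ccl4 had 1 count in each chow HuRHep-/- library and 40, 49 and 32 counts in HFCF HuRHep-/-, a ratio of 40.5 with a counting interval from 13.5 to 199, against 4, 6 and 5 counts in chow WT and 15, 5 and 31 in HFCF WT. Its diet difference in WT was 1.19, not called, and 1.83 and called without HFCF WT replicate 2. Ccl3 had 1 to 6 counts in every chow library, 14, 8 and 24 in HFCF WT and 34, 27 and 13 in HFCF HuRHep-/-. Both passed the adjusted p in HuRHep-/-, and Ccl3 in WT too, without the count minimum. Ccl9 went the other way. It was 59.8 ± 1.47 CPM in chow WT and 41 ± 7.3 in HFCF WT, and 52.2 ± 4.16 in chow HuRHep-/- and 38 ± 4.73 in HFCF HuRHep-/- (SD, n = 3), and it passed the adjusted p in both genotypes at a fold change under 1.5 (log2 -0.56 and -0.46). The receptor Ccr1 had 1 to 4 counts in every chow library and 6 to 24 in the HFCF libraries, and passed the adjusted p alone in HuRHep-/-.

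The interferon-inducible ligands were called with diet in HuRHep-/- livers, Cxcl10 by 2.43 (SE 0.31, adjusted p = 0.000316), Cxcl9 by 1.84 (SE 0.27, adjusted p = 0.000644) and Cxcl11 by 0.81 (SE 0.21, adjusted p = 0.01) on the log2 scale. In WT livers their differences of 0.26 (SE 0.31), 0.31 (SE 0.27) and 0.58 (SE 0.21) were not called, although Cxcl11 was called in WT with upper-quartile factors, with library totals alone and with at least 10 counts required in every library. Since the chow HuRHep-/- libraries had the lowest Cxcl9 and Cxcl10 values, the diet difference in HuRHep-/- shares those libraries with the genotype difference on chow.

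Among neutrophil attractants, Cxcl2 had 5, 1 and 3 counts in chow WT, 3, 8 and 0 in chow HuRHep-/-, 12, 39 and 25 in HFCF WT and 20, 26 and 25 in HFCF HuRHep-/-. Every HFCF library lay above every chow library. Its diet difference was called in HuRHep-/- (3.07, SE 0.90) and passed the adjusted p alone in WT (2.76, SE 0.90), where chow counts were under the minimum and the adjusted p was at most 0.05 in 3 of the 12 fits that left out a library. The chow HuRHep-/- libraries held 11 counts in all, and the HuRHep-/- call was lost without any of them or without HFCF HuRHep-/- replicate 2 or 3, with differences from 1.93 to 3.98 over those fits. Cxcl1, its close relative, was not called in any comparison and was 8.13 ± 1.93, 7.51 ± 0.49, 5.37 ± 1.06 and 6.44 ± 1.7 CPM in the 4 groups in the order above (SD, n = 3), although it was called lower with diet in WT in 3 of the 12 fits that left out a library, those without HFCF WT replicate 2, chow WT replicate 2 or HFCF HuRHep-/- replicate 1 (-0.59 with all libraries and -0.79 to -0.43 over the 12). Neutrophil markers were near the limit of detection, with 6 of 10, Ly6g among them, at 0 or not listed in some libraries, and their sum was 1.93 to 2.54, 2.03 to 3.65 and 2.32 to 3.49 CPM in chow WT, chow HuRHep-/- and HFCF WT and 4.82 to 5.78 CPM in HFCF HuRHep-/-, above every other library. Their part in the Cxcl2 values was not tested.

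Of the membrane-bound ligands and their receptors, Cx3cl1 (2.38, SE 0.47), Cx3cr1 (2.36, SE 0.69) and Cxcl16 (1.29, SE 0.23) were called higher with diet in HuRHep-/- and not in WT (1.16, 1.88 and 0.41). Without HFCF WT replicate 2 all 3 were called in WT as well (1.5, 2.42 and 0.67), as was Cx3cl1 without chow WT replicate 2 and Cx3cr1 without chow HuRHep-/- replicate 3. Cx3cr1 was 0.263, 0.936 and 0.85 CPM in chow WT and 1.51, 1.39 and 0.246 in chow HuRHep-/-, so that chow HuRHep-/- replicate 3 lay below every other library. The call of Cx3cr1 in HuRHep-/- was lost without that library or without HFCF HuRHep-/- replicate 1 or 3, with differences from 1.54 to 2.80 over the 12 fits. Cxcr6 was not called in any comparison. The 6 bile duct markers given above were all called higher with diet in HuRHep-/- and none in WT, and the 8 stellate cell markers were likewise all called in HuRHep-/-, with sums of 185 to 276 CPM on chow and 477 to 571 CPM on HFCF, and 1 was called in WT (234 to 271 and 266 to 499 CPM). Their part was not tested.

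Among the homeostatic chemokines, Cxcl13, which organizes B cell follicles, was lower with diet in both genotypes. It was 1.12, 0.468 and 0.817 CPM in chow WT, 1.3, 1.73 and 0.892 in chow HuRHep-/-, 0.0528, 0.061 and 0.254 in HFCF WT and 0.274, 0.259 and 0.108 in HFCF HuRHep-/-. No HFCF library reached the lowest chow library. The log2 fold changes were -2.80 (SE 0.57, adjusted p = 0.00577) in WT and -2.60 (SE 0.57, adjusted p = 0.00492) in HuRHep-/-. Without HFCF WT replicate 3 the HFCF WT counts fell under the minimum of 10 and the WT call was lost. Its receptor Cxcr5 was not called, at 0.758 ± 0.143, 0.586 ± 0.137, 0.692 ± 0.107 and 0.752 ± 0.401 CPM in the 4 groups (SD, n = 3). B cell marker sums overlapped among all groups, from 8.66 to 29.8 CPM.

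Cxcr4, which retains and recruits many leukocytes, and its ligand Cxcl12 differed in their calls. Cxcr4 was 0.329, 0.836 and 0.588 CPM in chow WT, 0.377, 1.02 and 0.554 in chow HuRHep-/-, 1.35, 1.5 and 2.64 in HFCF WT and 2.74, 3.81 and 4.42 in HFCF HuRHep-/-. It was called higher with diet in WT (1.65, SE 0.42, adjusted p = 0.0157) and in HuRHep-/- (2.55, SE 0.42, adjusted p = 0.00104), and the genotype groups in HFCF did not overlap. The WT call was lost without chow WT replicate 1 or HFCF WT replicate 3. Cxcl12 was 254 ± 25.8, 305 ± 37.3, 236 ± 13.8 and 232 ± 10.6 CPM in the 4 groups (SD, n = 3) and passed the adjusted p alone with diet in HuRHep-/- (log2 -0.38, SE 0.10, adjusted p = 0.00969).

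Ccl19 and its receptor Ccr7, which guide dendritic cells and naive T cells, were called higher with diet in HuRHep-/- (1.71, SE 0.44, and 1.60, SE 0.55). Ccl19 was 0.426 ± 0.251 CPM in chow and 1.3 ± 0.228 CPM in HFCF HuRHep-/-, and 0.705 ± 0.0576 and 0.887 ± 0.431 CPM in WT (SD, n = 3). Ccr7 was 0.254 ± 0.104 and 0.806 ± 0.411 CPM in chow and HFCF WT and 0.371 ± 0.217 and 1.03 ± 0.376 CPM in chow and HFCF HuRHep-/- (SD, n = 3). Its difference in WT was 1.56 (SE 0.55), not called, and it was called without HFCF WT replicate 2 (1.85), chow WT replicate 2 or chow HuRHep-/- replicate 3, and with library totals alone. Its call in HuRHep-/- was lost without chow HuRHep-/- replicate 3 or any HFCF HuRHep-/- library, and with the replicate block. Ccl21a, the other Ccr7 ligand, varied widely within groups, from 0.058 to 1.23 CPM in chow HuRHep-/- and from 0.736 to 2.17 CPM in chow WT, and was not called in any comparison. Ccl25 was called lower with diet in HuRHep-/- (-1.02, SE 0.16, adjusted p = 0.000789) and not in WT (-0.21, SE 0.16).

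Other members called with diet were the dendritic cell ligand Ccl22, the dendritic cell receptor Xcr1 and Cxcl14, an orphan ligand made by epithelium and stroma. Ccl22 had 1, 6 and 3 counts in chow WT, 25, 12 and 20 in HFCF WT, 2, 4 and 1 in chow HuRHep-/- and 39, 32 and 24 in HFCF HuRHep-/-. It passed the adjusted p in WT (2.36, SE 0.58) and in HuRHep-/- (3.40, SE 0.58). It was called in WT alone, because chow WT, at 10 counts, just met the count minimum and chow HuRHep-/-, at 7, did not, and the WT call was lost without any of the chow WT libraries. Xcr1 went from 0.254 ± 0.0945 to 0.639 ± 0.039 CPM in HuRHep-/- (SD, n = 3; 1.35, SE 0.31, called) and from 0.737 ± 0.0467 to 0.525 ± 0.0908 CPM in WT (SD, n = 3; -0.49, SE 0.31, not called). Dendritic cell markers summed to 5.52 to 6.37 CPM in chow WT, 5.14 to 7.24 in chow HuRHep-/-, 7.02 to 10 in HFCF WT and 7.93 to 12.1 in HFCF HuRHep-/-, none of the 7 was at 0, and 2 were called with diet in HuRHep-/-. Their part in the Xcr1 and Ccl22 values was not tested. Cxcl14 was 1.51 ± 0.397 CPM in chow and 4.46 ± 0.371 CPM in HFCF HuRHep-/-, and 1.06 ± 0.332 and 2.22 ± 1.23 CPM in WT (SD, n = 3), and was called in HuRHep-/- (1.59, SE 0.39) and, without HFCF WT replicate 2, in WT (1.44 in place of 0.92).

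Genes that act with the chemokines were counted in fixed lists, to be read beside the 6.14% and 14.2% of all genes called higher with diet in WT and in HuRHep-/-. Of 7 atypical receptors and platelet chemokines, which bind chemokines without signalling migration or are released by platelets, Ccrl2 (0.65) and Pf4 (0.97) were called higher with diet in WT, and Ackr1 (0.93), Ccrl2 (0.89) and Pf4 (1.06) in HuRHep-/-. None of the 7 was called by genotype by limma, and 1 in chow and 1 in HFCF had an unadjusted p under 0.05. Of 24 tested genes of receptor signalling, 7 were called higher with diet in WT (Dock2, Elmo1, Plcb2, Prex1, Rgs1, Rgs10 and Rgs19) and 14 in HuRHep-/-, among them Rgs1 (1.87, SE 0.33), a brake on chemokine receptor signalling in lymphocytes, and Gna15 (1.66, SE 0.36), a blood cell G protein subunit. By genotype, 1 of 22 was called in chow, the receptor kinase Adrbk2 (1.26, SE 0.27, adjusted p = 0.0468), and none of 24 in HFCF, where 23 estimates were positive and 12 had an unadjusted p under 0.05, beside 49.7% and 29.5% of all genes.

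Of 25 tested NF-kB components and inflammatory inducers, 5 were called higher with diet in WT (Nfkb2, Nfkbie, Relb, Tlr2 and Tnfaip3) and 10 in HuRHep-/-. The second group included those 5 and Atf3, Il1b, Il1rn and Tlr4, with a log2 fold change of 1.89 (SE 0.35) for Il1b, a macrophage cytokine. None was called by genotype by limma in chow or in HFCF, where 1 and 8 of the 25 had an unadjusted p under 0.05, beside 23.5% and 29.5% of all genes. Of the 9 AU-rich element binding proteins, Elavl1 among them, 0 were called by limma in any of the 6 comparisons, and 0 to 3 had an unadjusted p under 0.05 in each. Elavl1 passed the adjusted p alone between genotypes in chow (adjusted p = 0.0219) and in HFCF (adjusted p = 0.0327), higher in the libraries labelled HuRHep-/- at a fold change under 1.5.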

How the data were processed

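Total RNA of 12 mouse livers, 3 in each of the 4 groups given by the sample labels, was sequenced with a stranded kit. The authors aligned reads to GRCm38.p6 in CLC Genomics Workbench and deposited raw read counts per gene, without normalization, in a chow table and an HFCF table. These other values are whole numbers held as text with comma separators, so the commas were removed and a count model was not used. Counting error alone limits a value of few reads, and p-values measure the spread between libraries, described as separate mice for the chow set. With 3 against 3, an exact permutation test cannot give a p under 0.1.

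Counts were converted to CPM with TMM factors computed here (trims 0.3 and 0.05) and to log2 with a pseudocount of 0.5. Genes entered with 15 reads in all and, in at least 3 libraries, a CPM that equals 10 reads at the median depth. Limma 3.58.1 in R 4.3.3 was fitted with a variance trend, with Benjamini-Hochberg adjustment over all genes tested. Genotype was compared within each table (6 libraries). Diet, the interaction and the mean genotype difference were fitted over 12 libraries on the 20093 genes in both tables. A gene was called when its adjusted p was 0.05 or lower, its fold change 1.5 or higher and its count 10 or higher over each group. Fits were checked on simulated counts.

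Same-numbered HFCF libraries deviated together (correlations of 0.181, 0.293 and 0.139), so their numbers were taken as pairs, and the value with a replicate block is given where it changed a count. In chow they were -0.007, 0.179 and 0.03, and numbers were not taken as pairs.

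The genes and lists were chosen with earlier results of these data known. Named genes were those called or with an adjusted p of at most 0.05 in any comparison, the 10 highest by CPM and 5 by CPM per kilobase of exon, the receptors or ligands of the same axis, Ccl2, genes in 1 table alone, and called members of the partner lists. Some genes that met this rule enter the counts and are not reported here by name. Evi5l, Ctxn1 and the single cell type markers were named after their values were seen. Positions and 3′ untranslated regions came from GENCODE M21, promoters from RefSeq, both on GRCm38, searched in Python 3.11.15. Shared sequence was the share of 31-base words found in other genes, a guide only. Alternatives were RLE and upper-quartile factors, library totals, other filters, a pseudocount of 2, voom weights, robust moderation, the replicate block, a fit on 12 libraries, genes in either table, other call rules and leaving out each library.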

Additional observations from a re-analysis of the deposited data

Results flagged for a closer look

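The genotype difference of Cxcl10 went in opposite directions in the 2 diets. Every HuRHep-/- library lay below every WT library on chow and above every WT library on HFCF. The difference between the diets was 2.167 on the log2 scale (SE 0.43, adjusted p = 0.108 by limma), which did not pass the adjustment. Cxcl9 showed the same order, with a difference of 1.53 (SE 0.39, adjusted p = 0.154), although the closest HFCF libraries of the genotypes both read 10.4 CPM.

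The diet difference of Xcr1 went in opposite directions in the genotypes. Every HFCF library lay below every chow library in WT and above every chow library in HuRHep-/-. The difference was 1.841 (SE 0.44, adjusted p = 0.149), which did not pass either, and it is the same estimate as the difference between diets in the genotype effect. The values behind it were between 0.145 and 0.784 CPM.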

How the results depend on the processing

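The 3 genes called between HFCF genotypes were also the 3 called under 8 other settings of scaling, filter, pseudocount and moderation, 5 were called with the replicate block (Cxcl16 and Cxcr4 added), and 4 in the fit on all 12 libraries, without Cx3cl1 and with Ccl5 and Cxcl16. On chow, where 0 were called, the fit on 12 libraries called 1, Xcr1. With at least 10 counts in every library, 11 of 17 genes tested were called by diet in HuRHep-/- and 2 by genotype over both diets. The latter count was also 2 with voom weights and 3 with library totals alone, where it was 1 otherwise. With the adjusted p alone, 11 were called by diet in WT. Leaving out 1 library gave 0 to 8 called between HFCF genotypes (0 without HFCF WT replicate 1 or any HFCF HuRHep-/- library, 8 without HFCF WT replicate 3), 3 to 15 by diet in WT (3 without chow WT replicate 1, 15 without HFCF WT replicate 2), 15 to 19 by diet in HuRHep-/- and 1 to 6 by genotype over both diets (5 without chow HuRHep-/- replicate 3, 6 without HFCF WT replicate 3), and 0 in chow and in the interaction. The block, apart from the HFCF genotype comparison, cost Ccr7 its call by diet in HuRHep-/- and no other gene lost its call under it. By diet in WT, Ccr2 lost its call with voom weights. No log2 fold change of a called gene reversed under any alternative. Of the leave-one-out values of called genes, 307 kept an adjusted p of at most 0.05 and 35 did not. That count leaves out the fold and count limits of a call. The causes of these changes were not tested.

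Without scaling factors, the median log2 fold change of all genes moved to 0.15 between HFCF genotypes, 0.19 by diet in WT, 0.23 by diet in HuRHep-/- and 0.12 by genotype over both diets. The genes called higher and lower, 307 and 210 with TMM between HFCF genotypes, became 595 and 118. In chow 172 and 131 became 239 and 86, by diet in WT 892 and 471 became 1579 and 205, by diet in HuRHep-/- 2058 and 712 became 3027 and 307, and over both diets 517 and 276 became 881 and 181. In the interaction 5 and 3 were called where TMM gave 0. Genes with under 10 counts in a group could not be called at this depth.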
